A study of Mus musculus with 9 samples.

Results

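The genes described here encode the proteins of the cytosolic ribosome, measured in erythroblasts of mouse embryos that carry 0, 1 or 2 copies of Th3, a beta-thalassemia allele. Members were taken by gene symbol: the canonical proteins of the small (Rps) and large (Rpl) subunits, Rpsa, the stalk proteins Rplp0, Rplp1 and Rplp2, and paralogues with a symbol of the same form. This gave 60 of the 19938 genes that had a probe set naming 1 gene only, and each gene was represented by the probe set with the highest mean over the 9 arrays. Of the 60, 57 passed a filter on dim probe sets (above the 40th percentile of the array on at least 3 arrays), and Rpl3l, Rpl10l and Rpl39l did not. The 57 comprise 20 small subunit proteins, 30 large subunit proteins, 3 stalk proteins, the paralogues Rps27l, Rpl7l1 and Rps4l, and Rpl32l. They cover 53 of the 80 canonical proteins, and a further 16 were read only by probe sets that name several genes and are given separately.

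The cells were CD71+Ter119+FSChigh erythroblasts, sorted by flow cytometry from fetal livers at E14.5, where CD71 is the transferrin receptor, Ter119 a red cell surface marker and FSChigh a gate for large cells. Embryos came from Th3/+ x Th3/+ crosses, with the allele on a 129SV background that had been crossed back to C57BL/6 over 9 generations. The 3 genotypes were wild type, Th3/+ and Th3/Th3, with 3 arrays each and no treatment. From each sample 35 ng of total RNA was amplified before hybridisation to a whole-transcript array. Th3 lacks both adult beta-globin genes, so Th3/+ embryos keep 1 intact adult locus and Th3/Th3 embryos keep none. The labels do not say whether a sample was 1 embryo or a pool, and p-values then measure only the spread between these samples.

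Cytosolic ribosomes are built from a small subunit, which decodes the mRNA, and a large subunit, which forms peptide bonds and recruits elongation factors through its stalk. The mRNAs of nearly all ribosomal proteins begin with a tract of pyrimidines at the cap (a TOP motif), through which mTOR controls their translation together. Erythroblasts make globin at a very high rate before the nucleus and the ribosomes are lost, and loss of 1 copy of several ribosomal protein genes causes Diamond-Blackfan anaemia in humans. Free ribosomal proteins such as Rpl5 and Rpl11 bind Mdm2 and thereby stabilise p53.

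The pyrimidine tract is the sequence feature that the family shares, so the 30 bases around the annotated start are shown for some members on which the comparisons turn: 4 canonical genes that rose, the paralogue Rps27l, Rps4x, whose value hardly differed between genotypes, and Rpl7a, which was not called and has the longest run. Each runs 5′ to 3′ on the coding strand, with 15 bases on either side of the start, from RefSeq on build GRCm38.p6. Capitals mark the longest pyrimidine run near the start, or the nearest of equally long runs. The Rps18 window lies at chr17:33955651-33955680 on the minus strand, Rpl14 at chr9:120571502-120571531 on the plus strand, Rpl19 at chr11:98026909-98026938 on the plus strand, Rps28 at chr17:33824548-33824577 on the minus strand, Rps27l at chr9:66946071-66946100 on the plus strand, Rpl7a at chr2:26910792-26910821 on the plus strand and Rps4x at chrX:102189377-102189406 on the minus strand.
Rps18: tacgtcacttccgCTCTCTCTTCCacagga
Rpl14: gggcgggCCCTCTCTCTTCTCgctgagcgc
Rpl19: tgggCTCTCCCCTTCgcagataatgggcgg
Rps28: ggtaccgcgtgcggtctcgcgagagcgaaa
Rps27l: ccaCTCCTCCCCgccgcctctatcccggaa
Rps4x: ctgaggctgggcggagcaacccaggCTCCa
Rpl7a: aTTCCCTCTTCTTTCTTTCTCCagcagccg
The run is 21 bases long in Rpl7a, 14 in Rpl14 and 11 in Rps18 and in Rpl19, and it spans or adjoins the annotated start. A further RefSeq start of Rpl19 has a longest run of only 5 bases. In Rps28 the longest run also has 5 bases and begins at position -21 relative to the start, outside the window, and in Rps4x it has 4. Rps27l has 2 runs of 9 bases, of which the nearer begins at position -12, and a further start of the gene has runs of 5.

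RefSeq promoters were at hand for 48 of the 60 genes (57 promoters, 250 bases before to 50 after the start). A run of at least 8 pyrimidines within 25 bases of the start, on the coding strand, was present in 45.6% of them (26 of 57), against 24.1% of all 32851 promoters and 25.3% of the 75 promoters of mitochondrial ribosomal proteins. Counted by promoter, such a run was in 5 of the 10 promoters of genes called in Th3/Th3 against wild type (50%). It was in 20 of the 43 promoters of genes tested and not called (46.5%), and the median longest run was 7 bases in both. The 10 belong to 7 of the 11 called genes and the 43 to 38 of the 46 others. Every annotated start was counted, and Rpl19 and Rps27l had such a run at only some of their starts. The shares were not compared by gene. An ETS-type motif, CCGGAAG on either strand, was in 33.3% of the members' promoters, 34.7% of the mitochondrial family's and 8.86% of all promoters. The SP1-type motif GGGCGG was in 56.1%, 52% and 35.7% of the same sets, and the YY1-type motif AAGATGG in 8.77%, 17.3% and 6.34%, again on either strand. These are matches of letters, not binding sites, and an annotated start can differ from the one used in erythroblasts.

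Values are log2 signals, and differences between genotypes are differences of mean log2 values. The 2 probe sets shared by the adult beta-globin genes read 13.68 to 13.86 on the 6 wild type and Th3/+ arrays and 8.43 to 10.09 on the Th3/Th3 arrays, which matches the labelled genotypes. Each marker list was averaged on each array as the log2 of the mean unlogged signal, in which the brightest markers weigh most. Erythroblast markers (8 measured, among them the anion exchanger Slc4a1 and the heme enzyme Alas2) averaged 11.81 to 12.01 on the wild type arrays. They averaged 11.83 to 11.91 on the Th3/+ arrays and 10.93 to 11.23 on the Th3/Th3 arrays. Of the 8, 7 fell in Th3/Th3 against wild type (limma, adjusted p under 0.05), where 4.98% of all probe sets did. Of markers of other cells, the 8 of macrophages averaged 5.09 to 5.60 in wild type and 4.80 to 5.06 in Th3/Th3, with 1 fall (C1qb) and with Csf1r and Mrc1 below the filter. The hepatoblast list averaged 6.61 to 6.92 in wild type and 6.44 to 6.99 in Th3/Th3. For the megakaryocyte list the ranges were 7.23 to 7.73 and 6.83 to 7.09, and for the early progenitor list 4.71 to 4.82 and 4.58 to 4.69. For the granulocyte and mast cell list they were 5.00 to 5.62 and 5.13 to 5.29. In these lists 0 members were called, where 12.3% of all probe sets were. Th3/+ replicate 1 and Th3/Th3 replicate 1 stood apart from the other 7 arrays on the second principal component (20.5 and 25.5, against -14.9 to 7.71), which held 16.7% of the variance. Within wild type, Th3/+ and Th3/Th3, replicate 1 had the highest value there (7.71, 20.5 and 25.5). Replicate 3 had the lowest (-12.0, -13.0 and -14.9).

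In Th3/Th3 erythroblasts some ribosomal protein mRNAs of both subunits rose over wild type, by small amounts. Of the 57 genes, 11 rose and 0 fell in Th3/Th3 against wild type (limma, Benjamini-Hochberg adjusted p under 0.05 over all probe sets kept). That is 19.3% of the members, where 12.3% of all 17742 probe sets were called, 7.31% as higher and 4.98% as lower. The 11 were Rps18, Rps27l, Rplp1, Rps28, Rpl19, Rps14, Rps20, Rpl36, Rpl22, Rpl4 and Rpl14. At an unadjusted p under 0.05, 26 genes were higher and 0 lower. The members' median difference was 0.15 (1.11-fold), against 0.00 over all probe sets, and the largest was 0.62 (1.54-fold, Rpl14). With the arrays quantile-normalised the median was 0.09.

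The Th3/Th3 mean was above the wild type mean for 54 of the 57 genes, where this held for 50.0% of all probe sets. All 3 Th3/Th3 arrays exceeded all 3 wild type arrays for 29 genes, and lay below them for 1, Rps2 (15.4% and 12.1% of all probe sets). On each array the median of the 57 genes was taken, and it averaged 12.65 ± 0.07 for wild type, 12.66 ± 0.10 for Th3/+ and 12.80 ± 0.04 for Th3/Th3 (mean ± SD, n = 3 arrays each). It spanned 12.58 to 12.71, 12.54 to 12.75 and 12.76 to 12.83, so the Th3/Th3 arrays overlapped with neither other genotype. Erythroblast markers fell in the same Th3/Th3 arrays, as given above, and their part in the ribosomal protein result was not tested. In sorted bulk samples a change in the mix of cells and a change in RNA per cell cannot be told apart.

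**Figure D1:**
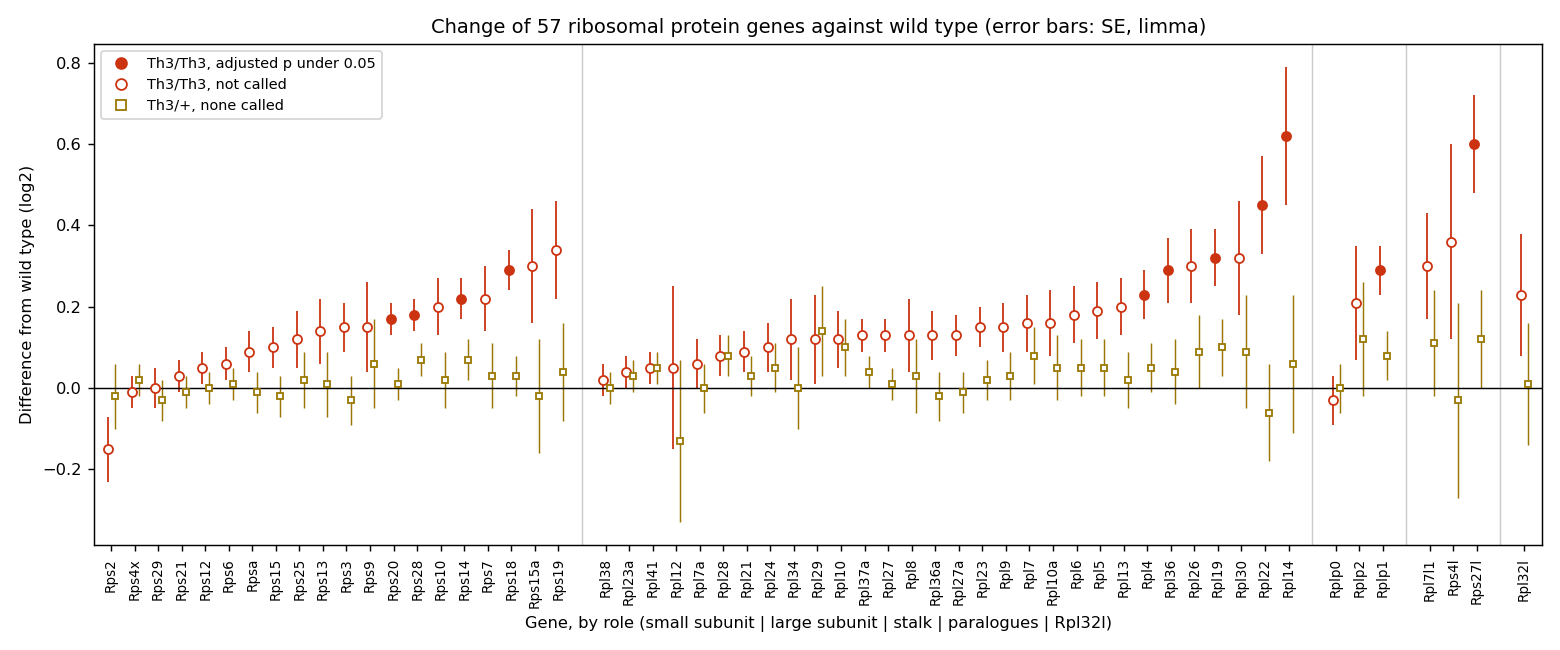
Difference from wild type (log2, vertical axis) of the 57 ribosomal protein genes, arranged by role along the horizontal axis, for Th3/Th3 (circles, filled where the adjusted p was under 0.05) and Th3/+ (squares), with the standard error from limma as bars. The Th3/Th3 circles lie above 0 for 54 genes, with 11 filled, while the Th3/+ squares lie between -0.13 and 0.14.

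**Figure D2:**
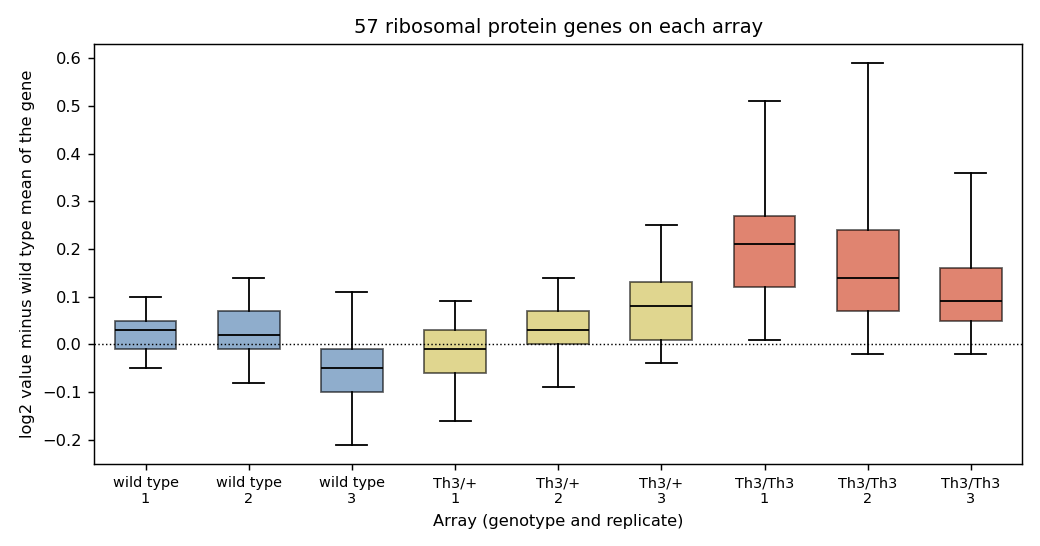
Log2 value minus the wild type mean of the same gene (vertical axis) for the 57 genes on each of the 9 arrays (horizontal axis). Boxes show the quartiles with the median as a line and whiskers show the 5th and 95th percentiles; the boxes of all 3 Th3/Th3 arrays lie above 0.

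The number of calls depended on single arrays. It was 3 without wild type replicate 2, 7 without wild type replicate 1, 5 without wild type replicate 3, and 6, 4 and 6 without Th3/Th3 replicates 1, 2 and 3. With both arrays that stood apart left out it was 8. Without wild type replicate 2 the share of members called was below the share of all probe sets called. The excess given above did not hold there. Rps18 and Rps27l were called under all 20 alternative settings, and the other 9 were not. Rpl14, Rpl22 and Rpl4 kept the call under 10 of the 20 and Rpl36 under 6.

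Among the small subunit proteins 4 of 20 rose (Rps18, Rps28, Rps14 and Rps20), with a median difference of 0.15 over the 20. That is 20.0%, where 7.31% of all probe sets rose. Rps18, a protein of the head of the small subunit, read 13.10, 13.02 and 12.96 on the wild type arrays, 13.02, 13.03 and 13.10 on the Th3/+ arrays, and 13.37, 13.32 and 13.25 on the Th3/Th3 arrays. The Th3/Th3 values lay above all 6 others, while wild type and Th3/+ overlapped. The difference between Th3/Th3 and wild type was 0.29 (SE 0.05, limma adjusted p = 0.00623), the smallest p of the 57 genes. All 7 of the probe sets that name Rps18 rose, by 0.25 to 0.30, although several probe sets of 1 gene read the same RNA and are not replicates. Fau, which encodes a small subunit protein fused to a ubiquitin-like domain and lies outside the symbol rule, had a smaller p. It read 12.20, 12.02 and 12.11 on the wild type arrays, 12.13, 12.30 and 12.37 on the Th3/+ arrays and 12.59, 12.51 and 12.51 on the Th3/Th3 arrays, and rose by 0.42 over wild type (SE 0.07, limma adjusted p = 0.00595), with every Th3/Th3 array above all others. Rps3a1, also outside the rule, differed by 0.06 (limma adjusted p = 0.742).

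Rps28, a small protein near the mRNA exit that is mutated in some patients with Diamond-Blackfan anaemia, read 13.19, 13.12 and 13.11 on the wild type arrays, 13.17, 13.21 and 13.24 on the Th3/+ arrays and 13.34, 13.28 and 13.34 on the Th3/Th3 arrays. Its 9 values hardly spread within a genotype, and the Th3/Th3 arrays were above the others by a small step. The rise was 0.18 (SE 0.04, limma adjusted p = 0.0145). Rps20, also a Diamond-Blackfan gene, was at 13.37, 13.35 and 13.28 on the wild type arrays, 13.36, 13.33 and 13.35 on the Th3/+ arrays and 13.55, 13.52 and 13.44 on the Th3/Th3 arrays. Wild type and Th3/+ coincided and all Th3/Th3 arrays were higher, by 0.17 over wild type (SE 0.04, limma adjusted p = 0.0243).

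Rps14, the small subunit gene in the interval deleted in the 5q- syndrome, gave 13.17, 13.21 and 13.28 on the wild type arrays, 13.28, 13.25 and 13.35 on the Th3/+ arrays and 13.49, 13.47 and 13.36 on the Th3/Th3 arrays. Th3/Th3 was above both other genotypes, though by only 0.01 between its lowest array and the highest Th3/+ array. The difference from wild type was 0.22 (SE 0.05, limma adjusted p = 0.0211), and both probe sets of the gene rose. Rps2 had the lowest difference of the canonical genes. It read 12.92, 12.94 and 13.13 on the wild type arrays, 12.83, 13.00 and 13.08 on the Th3/+ arrays and 12.90, 12.81 and 12.83 on the Th3/Th3 arrays, with a difference of -0.15 that did not pass the test (SE 0.08, limma adjusted p = 0.258). Its 3 probe sets differed by -0.23 to -0.13.

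In the large subunit 5 of 30 rose (Rpl19, Rpl36, Rpl22, Rpl4 and Rpl14), or 16.7%, where 7.31% of all probe sets rose. All 30 means were higher in Th3/Th3 (50.0% of all probe sets), by 0.02 to 0.62 with a median of 0.13. Rpl14 had the largest difference of all canonical genes. Its values were 10.92, 10.69 and 10.84 on the wild type arrays, 10.42, 11.00 and 11.20 on the Th3/+ arrays and 11.40, 11.46 and 11.46 on the Th3/Th3 arrays. The Th3/Th3 arrays were nearly equal and above all others, while the Th3/+ arrays spread over both sides of the wild type. The rise was 0.62 (SE 0.17, limma adjusted p = 0.0463).

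Rpl22, which binds RNA at the surface of the large subunit and also outside the ribosome, read 7.34, 7.38 and 7.19 on the wild type arrays, 7.26, 7.21 and 7.26 on the Th3/+ arrays and 7.59, 7.91 and 7.75 on the Th3/Th3 arrays. Only the Th3/Th3 arrays stood out, by 0.45 over wild type (SE 0.12, limma adjusted p = 0.0402). Rpl19, which forms a bridge between the subunits, was at 12.16, 12.03 and 12.01 on the wild type arrays, 12.12, 12.18 and 12.21 on the Th3/+ arrays and 12.46, 12.44 and 12.25 on the Th3/Th3 arrays. Here the means ran in the order of the number of Th3 alleles, but wild type and Th3/+ overlapped, and the rise in Th3/Th3 over wild type was 0.32 (SE 0.07, limma adjusted p = 0.0192). All 7 of its probe sets rose, by 0.25 to 0.40.

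Rpl36 read 13.03, 12.81 and 12.72 on the wild type arrays, 12.86, 12.85 and 12.95 on the Th3/+ arrays and 13.11, 13.23 and 13.10 on the Th3/Th3 arrays. Its wild type arrays had an SD of 0.16, and wild type replicate 1 came within 0.07 of the lowest Th3/Th3 array. The difference was 0.29 (SE 0.08, limma adjusted p = 0.0381), and 7 of its 9 probe sets rose. Rpl4, an essential protein that reaches into the peptide exit tunnel, gave 12.70, 12.70 and 12.64 on the wild type arrays, 12.62, 12.82 and 12.76 on the Th3/+ arrays and 12.83, 12.92 and 12.97 on the Th3/Th3 arrays. Th3/Th3 was highest by a narrow margin over Th3/+ replicate 2, and the rise over wild type was 0.23 (SE 0.06, limma adjusted p = 0.0438).

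Of the 3 stalk proteins 1 rose (7.31% of all probe sets did), with a median difference of 0.21. Rplp1, one of the acidic proteins that recruit elongation factors, read 13.23, 13.24 and 13.13 on the wild type arrays, 13.26, 13.21 and 13.38 on the Th3/+ arrays and 13.58, 13.49 and 13.41 on the Th3/Th3 arrays. It rose by 0.29 over wild type (SE 0.06, limma adjusted p = 0.0116), with every Th3/Th3 array above all others. Rplp0, the scaffold of the stalk and a common reference gene in expression assays, was at 13.45, 13.45 and 13.56 on the wild type arrays, 13.36, 13.52 and 13.58 on the Th3/+ arrays and 13.47, 13.42 and 13.47 on the Th3/Th3 arrays. These ranges overlapped throughout, with a difference of -0.03 (SE 0.06, limma adjusted p = 0.807). Rplp2, the partner of Rplp1, differed by 0.21 (SE 0.14, limma adjusted p = 0.417), with 7.86 to 7.91 on the wild type arrays, 7.84 to 8.30 on the Th3/+ arrays and 8.03 to 8.11 on the Th3/Th3 arrays.

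**Figure D3:**
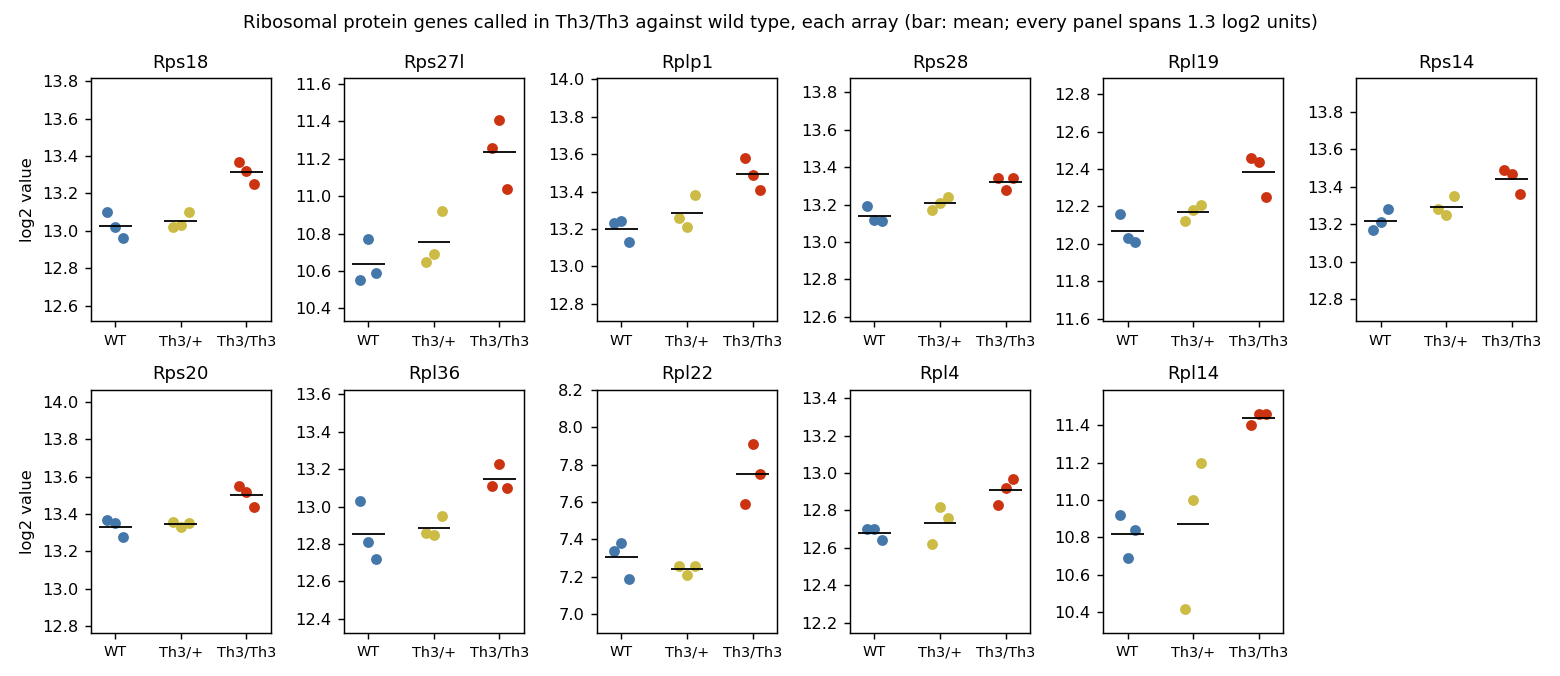
Log2 value on each array (points) with the genotype mean (bar) for the 11 genes that rose in Th3/Th3 against wild type, each panel spanning the same range of 1.3 log2 units. In every panel the 3 Th3/Th3 points lie above the wild type and the Th3/+ points; the widest spread among Th3/+ points is that of Rpl14, from 10.42 to 11.20.

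The remaining 46 genes tested did not pass. Their differences ran from -0.15 (Rps2) to 0.36 (Rps4l), and 43 of them were higher in the Th3/Th3 mean. Most canonical members read close to the top of the scale, where array signals can compress differences: 44 of the 53 had a mean of 12 or more, on arrays whose highest values were 14.03 to 14.20. Of these 44, 8 rose (18.2%), with a median difference of 0.14. Of the 9 below 12, 2 rose (22.2%), with a median of 0.21. Among all probe sets 7.31% rose. Across the 53 probe sets the mean signal and the difference had a Spearman correlation of -0.40, which is a description over genes that share the same arrays. Compression of the signal was not tested. The members varied little within a genotype, with a median SD of 0.078 against 0.157 over all probe sets.

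Groups of medical interest were described by the same counts. Of the 20 Diamond-Blackfan anaemia genes listed, 10 had a probe set of their own; 2 rose (Rps28 and Rps20, or 20.0% where 7.31% of all probe sets rose), and the median difference of the 10 was 0.20, against 0.13 over the 43 canonical genes tested outside the list, of which 8 rose. Rpl26 was higher by 0.30 (SE 0.09, limma adjusted p = 0.0531) and Rps10 by 0.20 (SE 0.07, limma adjusted p = 0.0984), both short of the threshold. Rps19, the gene mutated most often in the disease and named here for that reason, read 12.16, 12.02 and 11.73 on the wild type arrays, 12.14, 11.94 and 11.95 on the Th3/+ arrays and 12.51, 12.15 and 12.25 on the Th3/Th3 arrays. Its Th3/Th3 replicate 2 lay just below wild type replicate 1, and the difference of 0.34 did not pass (SE 0.12, limma adjusted p = 0.122).

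Of 10 ribosomal proteins listed as binding Mdm2, 7 were measured; 2 rose (Rps27l and Rps14, or 28.6%, where 7.31% of all probe sets rose) and all 7 means were higher in Th3/Th3, with a median difference of 0.19. Rpl23 was higher by 0.15 (limma adjusted p = 0.0942) and Rpl5, which with Rpl11 and the 5S RNA forms the complex that inhibits Mdm2, by 0.19 (limma adjusted p = 0.111). A second probe set of Rpl23 rose by 1.18 (SE 0.32, limma adjusted p = 0.0437), with 10.10, 10.07 and 8.68 on the wild type arrays and 10.71, 10.94 and 10.74 on the Th3/Th3 arrays, so its size rests in part on wild type replicate 3. This probe set and one of Rps15 that rose by 0.29 were noticed after the values were seen. Ribosomal protein genes have many processed pseudogenes of near-identical sequence, and signal from such copies could not be separated from that of the genes.

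Because 39 of the 60 genes had more than 1 probe set, with up to 14 for Rps12, the choice of the brightest could matter. Over all 213 member probe sets tested, 36 rose and 0 fell in Th3/Th3 against wild type, with a median difference of 0.13. Of all probe sets 7.31% rose and 4.98% fell. Rps18, Rpl19 and Rpl36 gave 7 of the 36 each and Rps28 gave 5, and probe sets of 1 gene read the same RNA. Of the 39 genes, 8 had at least 1 probe set that rose, and for 6 of these the chosen one was among them.

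The 16 canonical genes read only through probe sets that name several genes gave similar values, from 0.04 to 0.52 with a median of 0.15. Of the 16, 3 rose and 0 fell, where 7.31% and 4.98% of all probe sets did. The probe set for Rpl13a and Zfp526 rose by 0.34 (SE 0.06, limma adjusted p = 0.00638), that for Rps27 and Rps27rt by 0.52 (SE 0.14, limma adjusted p = 0.0440) and that for Rpl17, Gm6133 and Hk1 by 0.20 (SE 0.06, limma adjusted p = 0.0449). With these 16 added the count of genes that rose was 14. The probe set for Rpl11 and Brf2 differed by 0.20 (limma adjusted p = 0.0596).

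In Th3/+ against wild type 0 of the 57 genes were called (limma), where 0.0282% of all probe sets were. At an unadjusted p under 0.05 the count was also 0, and for 0 genes did the 3 Th3/+ arrays lie wholly above or below the wild type arrays, against 4.40% and 3.22% of all probe sets. The median difference was 0.03 (0.01 with quantile normalisation or without Th3/+ replicate 3, 0.00 without wild type replicate 3 and 0.05 without Th3/+ replicate 1), with a range of -0.13 to 0.14, and the Th3/+ mean was the higher one for 43 genes, where this held for 51.9% of all probe sets. The smallest p-values belonged to Rps28 (0.07), Rpl28 (0.08) and Rpl19 (0.10), each with a limma adjusted p of 1.00.

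In Th3/Th3 against Th3/+ 4 genes rose and 0 fell, 7.02% of the 57, where 7.27% of all probe sets were called, 4.01% as higher and 3.26% as lower. The share called in either direction was thus near that of all probe sets. The share that rose, 7.02% against 4.01%, rests on 4 genes. Rps18 was higher by 0.27 (limma adjusted p = 0.0146), Rpl22 by 0.51 (limma adjusted p = 0.0358), Rps27l by 0.48 (limma adjusted p = 0.0435) and Rps20 by 0.16 (limma adjusted p = 0.0468). The median difference of the 57 was 0.12 (0.07 without both arrays that stood apart), and 52 means were higher in Th3/Th3 (50.1% of all probe sets). For 28 genes all Th3/Th3 arrays exceeded all Th3/+ arrays, with 0 the other way (12.9% and 9.93% of all probe sets). The count was 0 without Th3/+ replicate 2, 1 when Th3/+ replicate 1, Th3/Th3 replicate 2 or wild type replicate 2 was dropped, 2 when Th3/Th3 replicate 1 or wild type replicate 1 was dropped, and 1 without both arrays that stood apart. This comparison and that against wild type share the Th3/Th3 arrays.

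Whether the heterozygote lay off the midpoint of the other genotypes was tested in the same fit. It lay below the midpoint for 48 genes and above it for 9, by a median of -0.04, with 0 genes called (limma), where 0.0789% of all probe sets were, 0.0620% above and 0.0169% below. At an unadjusted p under 0.05, 2 genes were below and 0 above. Rps18 lay -0.12 from the midpoint (limma adjusted p = 0.510), Rpl22 -0.28 (limma adjusted p = 0.520) and Rps20 -0.07 (limma adjusted p = 0.681).

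Paralogues replace or accompany a canonical protein in some tissues. Rps27l, a homologue of Rps27 that p53 induces, read 10.55, 10.77 and 10.59 on the wild type arrays, 10.65, 10.69 and 10.92 on the Th3/+ arrays and 11.26, 11.41 and 11.04 on the Th3/Th3 arrays. All Th3/Th3 arrays were above the rest, and the rise over wild type was 0.60, or 1.52-fold (SE 0.12, limma adjusted p = 0.0112). Against the median of the 53 canonical genes on the same array, Rps27l was 0.45 further up in Th3/Th3 than in wild type. The relative values were -0.12, 0.09 and 0.03 on the wild type arrays and 0.04, 0.03 and 0.23 on the Th3/+ arrays. On the Th3/Th3 arrays they were 0.44, 0.62 and 0.28, which did not overlap with wild type. The exact two-sided permutation p was 0.10, the smallest that 3 against 3 arrays allow. By the same permutation, Rpl7l1 gave 0.14 (p = 0.30) and Rps4l 0.20 (p = 0.70), all without adjustment. Rps27l read below the canonical median on every array, and an effect of signal level was not tested.

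Rps27 itself had no probe set of its own, and the one it shares with Rps27rt read 12.08, 12.15 and 11.63 on the wild type arrays, 12.10, 11.88 and 11.98 on the Th3/+ arrays and 12.66, 12.50 and 12.27 on the Th3/Th3 arrays. It rose by 0.52, as given above. The change of Rps27l exceeded that of this partner by 0.08, with overlapping arrays (exact two-sided permutation p = 0.80, Benjamini-Hochberg adjusted p = 0.80 over 5 pairs). So a difference in response within this pair was not detected, and the design could not have given a p under 0.1 for any pair.

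Rpl22l1, the paralogue of Rpl22, shares a probe set with Gm15421, which read 10.18, 10.57 and 9.93 on the wild type arrays, 10.31, 10.28 and 10.16 on the Th3/+ arrays and 10.90, 11.25 and 10.66 on the Th3/Th3 arrays. It rose by 0.71 over wild type (SE 0.18, limma adjusted p = 0.0357), with no overlap. Rpl22 rose too, and the paralogue's change was larger by 0.26 (exact two-sided permutation p = 0.20, adjusted p = 0.67 over the 5 pairs).

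Rpl7l1, a nucleolar relative of Rpl7, read 7.98, 7.95 and 8.13 on the wild type arrays, 8.11, 8.10 and 8.18 on the Th3/+ arrays and 8.37, 8.50 and 8.09 on the Th3/Th3 arrays, where replicate 3 lay inside the wild type range. Neither Rpl7l1 (0.30, SE 0.13, limma adjusted p = 0.200) nor Rpl7 (0.16, SE 0.07, limma adjusted p = 0.167) passed, and their changes differed by 0.14 (exact two-sided permutation p = 0.40, adjusted p = 0.67). Rps4l, a paralogue of the X-linked Rps4x, was scattered: 8.06, 7.78 and 7.13 on the wild type arrays, 7.72, 7.30 and 7.84 on the Th3/+ arrays and 7.89, 8.13 and 8.02 on the Th3/Th3 arrays. Its difference of 0.36 did not pass (SE 0.24, limma adjusted p = 0.395).

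Rps4x, in contrast, stayed within 13.15 to 13.24 on all 9 arrays, with a difference of -0.01 between Th3/Th3 and wild type (SE 0.04, limma adjusted p = 0.939). The changes of Rps4l and Rps4x differed by 0.37 (exact two-sided permutation p = 0.30, adjusted p = 0.67). Rpl36al, read by a probe set shared with Dnaaf2, was at 12.63 to 12.70 on the wild type arrays, 12.64 to 12.83 on the Th3/+ arrays and 12.83 to 12.88 on the Th3/Th3 arrays, a rise of 0.19 (SE 0.05, limma adjusted p = 0.0497). Rpl36a differed by 0.13 (limma adjusted p = 0.213), and the pair's changes by 0.06 (exact two-sided permutation p = 0.60, adjusted p = 0.75).

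The paralogues Rpl3l, Rpl10l and Rpl39l, known from muscle or testis, stayed below the filter, with 3.70 to 4.10 for Rpl3l and 3.83 to 4.61 for Rpl10l. Rpl39l was at 3.97 to 4.24 in wild type and Th3/+ and at 4.51, 6.26 and 3.66 in Th3/Th3, so 1 of the 3 arrays stood apart. Rpl32l, which meets the symbol rule but is on no list of paralogues used here, differed by 0.23 (SE 0.15, limma adjusted p = 0.370).

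**Figure D4:**
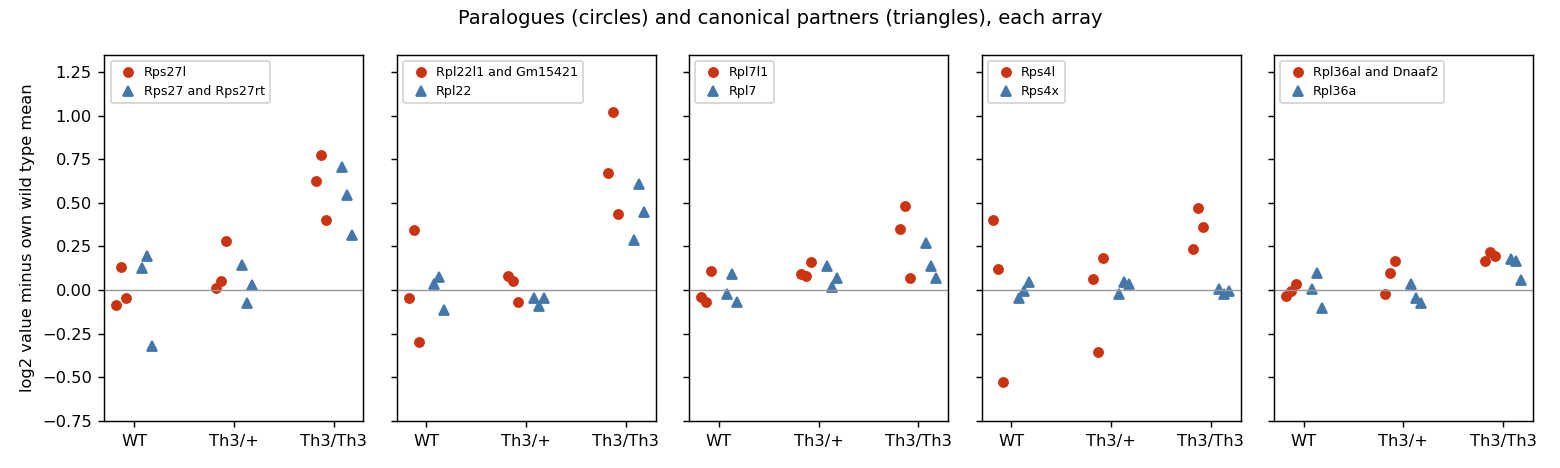
Log2 value minus the wild type mean of the same probe set (vertical axis) by genotype (horizontal axis) for 5 paralogues (circles) and their canonical partners (triangles), with 1 point per array. Rps27l and the Rps27 probe set, and Rpl22l1 and Rpl22, are higher in Th3/Th3, and paralogue and partner overlap within each of these pairs.

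Other mRNAs with a TOP motif, which encode translation factors and their partners, moved in both directions. Of 15 tested, 3 rose and 1 fell in Th3/Th3 against wild type, with a median difference of 0.27. That is 26.7% called, where 12.3% of all probe sets were (7.31% higher, 4.98% lower). The initiation factor subunits Eif3h and Eif3e rose by 0.41 (limma adjusted p = 0.0182) and 0.58 (limma adjusted p = 0.0263), and Naca, which shields nascent chains, by 0.27 (limma adjusted p = 0.0449). Pabpc1, the cytoplasmic poly(A)-binding protein, read 13.27, 13.32 and 13.38 on the wild type arrays, 13.31, 13.37 and 13.38 on the Th3/+ arrays and 12.49, 12.46 and 12.77 on the Th3/Th3 arrays. It was lower on every Th3/Th3 array and fell by 0.75 (SE 0.08, limma adjusted p = 0.000517), while 0 of the 57 ribosomal protein genes fell.

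Of 29 factors that assemble and export ribosomes 7 rose and 2 fell (31.0%, against 12.3% of all probe sets), with a median difference of 0.27. Rsl24d1, which holds the place of an Rpl24-type protein on the pre-60S particle, rose by 1.14 (limma adjusted p = 0.00144), and its wild type values of 6.82, 6.95 and 6.63 compare with 8.08, 7.79 and 7.97 in Th3/Th3. Nob1, the nuclease that matures the 18S RNA, rose by 1.01 (limma adjusted p = 0.00440), Nop10, of the box H/ACA particles, by 0.82 (limma adjusted p = 0.00486), and Sbds, which releases Eif6 from the 60S subunit, by 0.67 (limma adjusted p = 0.0183). Riok3, a kinase of 40S maturation, fell by 0.54 (limma adjusted p = 0.0186), and the other fall was Dkc1.

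Of 15 chaperones and import factors of ribosomal proteins 1 rose (7.31% of all probe sets did), Pdcd2l, a relative of the Rps2 chaperone Pdcd2, by 0.90 (SE 0.16, limma adjusted p = 0.00665). Its wild type values of 6.60, 6.88 and 7.14 lay below the Th3/Th3 values of 7.55, 7.80 and 7.99. Of 14 genes for the rescue of stalled ribosomes 1 rose and 2 fell (21.4%, against 12.3% of all probe sets), with a median of 0.02. Tcf25, of the ribosome quality control complex, rose by 0.65 (limma adjusted p = 0.0403), Ascc2, of the complex that splits collided ribosomes, fell by 0.58 (limma adjusted p = 0.0329), and the GTPase gene Gtpbp2 fell by 0.43 (limma adjusted p = 0.0499).

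Of 12 p53 target genes tested 3 rose and 0 fell (where 7.31% of all probe sets rose), with a median difference of 0.16. The Th3/Th3 mean was above the wild type mean for 8 of them and below it for 4. The lowest difference was that of Btg2, -0.22 (limma adjusted p = 0.340). Ccng1 read 7.38, 7.27 and 7.69 on the wild type arrays, 7.98, 7.95 and 8.37 on the Th3/+ arrays and 8.68, 9.94 and 9.95 on the Th3/Th3 arrays, with the 3 genotypes in separate ranges and a rise of 2.08 over wild type (SE 0.32, limma adjusted p = 0.00323). Trp53inp1 rose by 1.13 (limma adjusted p = 0.000658) and Sesn2 by 0.42 (limma adjusted p = 0.0360). These are values beside the rise of Rps27l, and a link between them was not tested.

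The mitochondrial ribosomal proteins, the most similar family, gave 17 rises and 0 falls among 76 tested, or 22.4% against 19.3% for the cytosolic proteins. Of all probe sets 7.31% rose and 4.98% fell. Their median difference was 0.41, against 0.15 for the cytosolic proteins. Mrpl9, the member with the smallest p, read 7.75, 7.73 and 7.84 on the wild type arrays, 7.91, 8.16 and 8.20 on the Th3/+ arrays and 8.67, 8.85 and 8.90 on the Th3/Th3 arrays and rose by 1.03 (limma adjusted p = 0.00121). The cytosolic members had a median level of 12.65, and most mitochondrial members read lower. Neither the difference between the families nor an effect of signal level on it was tested.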

How the data were processed

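Total RNA of 9 sorted erythroblast samples was measured on whole-transcript arrays. Values were deposited as a single table with 1 number for every probe set on every array, on a log2 scale by its range. MAS5 is named in the submitters' processing notes, but for the deposited log2 values the background correction and the summary method were not given in the sources used here. Array medians lay between 4.97 and 5.05, and the values were used as deposited. Of 35556 probe sets, 6617 below the first annotated identifier were left out as a control block. Genes were named through the platform annotation, which gave 1 symbol to 21789 probe sets, several to 1621 and none to 5529.

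For 17742 probe sets (above the 40th percentile on at least 3 arrays) limma 3.58.1 under R 4.3.3 estimated the 3 genotype means from the 9 arrays together. Contrasts were tested two-sided with lmFit and eBayes, using the variance trend, with Benjamini-Hochberg adjustment across these probe sets. Pairs of paralogue and partner were compared by exact permutation over samples. The procedure was tested on simulated data with independent noise and no replicate effect. Most changes simulated there were larger than those of the members called (1.12- to 1.54-fold). Alternatives covered the filter, scaling, variance model, replicate block, probe set rule, genotypes in the fit and each replicate left out. Leaving out both arrays that stood apart and adding probe sets of several genes were chosen after seeing the data. The members and gene lists were chosen with earlier results of these data known. Genes named are the members with an adjusted p under 0.05 in Th3/Th3 against wild type, paralogues and partners, the canonical members with the largest differences either way, for other contrasts and role groups those with the smallest p, and up to 4 called genes of each list. Symbols were matched to RefSeq promoters on GRCm38.p6. The number of arrays limits the precision.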

Additional observations from a re-analysis of the deposited data

How the results depend on the processing

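In Th3/Th3 against wild type the 11 members called became 6 with no filter, 4 with no variance trend and 7 in a fit of the 2 genotypes compared, and 3 to 11 when a replicate was left out. In Th3/Th3 against Th3/+ the 4 became 1 with no filter, 2 with no variance trend, 2 in a fit of the 2 genotypes, 1 without both arrays that stood apart, and 0 to 4 when a replicate was left out. The cause was not tested. All probe sets called in Th3/Th3 against wild type numbered 2181, with 1447 (without wild type replicate 2) to 2301 when a replicate was left out. Beside these 1447, 3 of the 57 members were called, a smaller share than that of all probe sets. With the replicate number as a block the counts were 11 and 3. Of 9 same-numbered pairs of samples, 6 correlated above 0.1. In both other genotypes 5 of 9 samples correlated best with their own number. The pairs of replicate 2 correlated at -0.13, 0.06 and 0.07, and the pairs above 0.1 were those of replicates 1 and 3. Samples numbered 1 or 3 thus shared some deviation, which the main fit does not model. The labels name no batch, and the source of this deviation was not tested. The median difference stayed between 0.09 (quantile normalization) and 0.17 (Th3/Th3 against wild type), 0.00 and 0.05 (Th3/+ against wild type) and 0.07 and 0.15 (Th3/Th3 against Th3/+) under all 20 settings. Signs turned for Rps4x, which was at 0.00 with arrays centred on their median, 0.02 without wild type replicate 3 and 0.00 without Th3/Th3 replicate 2, and for Rps27l against Rps27, at -0.03 without wild type replicate 1, in a range of -0.03 to 0.22 over replicates left out. The pairs gave no value under a filter, variance or block alternative, since those do not enter a permutation of 1 value. The members' signals lay near the top of the scale, and whether this limited the size of the differences was not tested.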
